A study of Mus musculus with 10 samples.

Results

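Transcript levels of 10 regulators that act between growth factor receptors and RAS were compared in hearts of Rit1 M90I/+ mice that had received the MEK inhibitor (MEKi) trametinib or vehicle control. The regulators were chosen by gene name and comprise *Ptpn11*, *Sos1*, *Sos2*, *Grb2*, *Gab1*, *Shc1*, *Nf1*, *Rasa1*, *Rasa2* and *Cbl*. All 10 were present among the 54532 genes of the expression table. All but *Rasa2*, 9 of them, were among the 12602 genes whose mean over the hearts reached 0.5 FPKM (fragments per kilobase of gene length, scaled per heart). Each group held 5 hearts, given as biological replicates 1 to 5 in the labels. MEKi mice received trametinib at 1 mg/kg daily for 20 weeks from 4 weeks of age, and the vehicle group received the carrier over the same period. Every mouse of either group carried 1 germline M90I allele, made by crossing a conditional allele to a cytomegalovirus-Cre deleter line, so the variant was not restricted to the heart. No wild-type heart was part of the comparison, so the values compare mutant hearts with each other and do not bear on the effect of the mutation.

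RAS proteins cycle between a GDP-bound resting form and a GTP-bound form that activates RAF kinases. An activated receptor is read by SHC1 and GRB2, adaptors that bind phosphotyrosine and bring the exchange factors SOS1 and SOS2 to the membrane, where these load RAS with GTP. GAB1 is a docking protein that recruits the phosphatase SHP2, encoded by *Ptpn11*, which promotes RAS activation. Neurofibromin (*Nf1*), p120 RasGAP (*Rasa1*) and RASA2 are GTPase-activating proteins (GAPs) that return RAS to its GDP-bound form, and CBL is a ubiquitin ligase that tags activated receptors for removal. Germline variants of several of these genes cause Noonan syndrome and related RASopathies, in which the heart is often affected.

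No regulator passed the threshold between MEKi-treated and vehicle hearts. In a limma fit over all 12602 genes, 0 of the 9 regulators tested had an adjusted p under 0.05, where 0.0794% of all genes did, and 2 (*Grb2* and *Gab1*) had an unadjusted p under 0.05, where 7.62% of all genes did. By voom, also from limma, on the fragments recovered from the FPKM, the counts were 0 and 1. They were also 0 and 1 (*Rasa1*, limma unadjusted p = 0.0311) without vehicle hearts 4 and 5 and MEKi heart 2, which were high in atrial genes, and the second count was 1 or 2 with any 1 heart left out. It was 3, with *Rasa1* added, on a TPM scale (limma unadjusted p = 0.0256 for *Rasa1*) and with every gene above 0 tested (0.0479). For none of the 10 regulators were the hearts of one group all above or all below those of the other, a pattern found for 1.64% of the genes tested. Of the 9 regulators, 6 had a positive and 3 a negative log2 fold change, with a median of 0.071 beside 0.011 for all genes tested. In percent of the vehicle mean, the largest differences among the 9 were those of *Gab1*, with a mean that was 20.4% higher with MEKi, and *Nf1*, with a mean that was 17.3% lower.

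The deposited values rested on 13647167 to 18474002 fragments assigned to genes per heart. Mitochondrial genes held 35.0% of these fragments in vehicle heart 3, and 24.0 to 31.1% in the other hearts. Vehicle heart 3 was the highest heart for *Ptpn11*, *Sos2* and *Nf1*, and the part of the mitochondrial share in these levels was not tested. Ventricular cardiomyocyte genes (*Myh6*, *Myl2*, *Myl3*, *Tnnt2*, *Tnni3* and *Actc1*) summed to between 17075 and 24834 FPKM per heart. The Rit1 transcript itself, of which 1 allele carries the variant in both groups, had means of 14.6 ± 1.53 and 19.0 ± 2.50 FPKM in the vehicle and MEKi groups (SD, n = 5 each). *Xist*, the transcript of the inactive X chromosome, had 1456 to 2199 fragments in each MEKi-treated heart and at most 2 in a vehicle heart, and the Y-linked gene *Ddx3y* had 814 to 901 fragments in each vehicle heart and 0 in each MEKi-treated heart. Sex-linked transcripts thus divided the hearts as treatment did, and the part of each in any difference given here cannot be told apart. Atrial genes (*Sln*, *Myl7*, *Myl4*, *Dkk3* and *Bmp10*) summed to 861, 390.6 and 708 FPKM in vehicle hearts 4 and 5 and MEKi heart 2, and to between 2.86 and 42.7 FPKM in the other 7 hearts. Red cell genes summed to 23639 and 25874 FPKM in vehicle hearts 4 and 5, and to at most 7386 FPKM elsewhere. In bulk tissue, fewer cells of a type and less RNA per cell cannot be told apart.

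The regulators spanned 2 orders of magnitude in FPKM, which divides by the gene length of the deposited table. That length was 2.916 kb for *Grb2*, 7.492 kb for *Ptpn11* and 15.856 kb for *Rasa2*. In fragments, *Ptpn11* had 1827 to 3001 per heart and *Grb2* 814 to 1359, so the order of this pair depends on the length. Median fragments per heart also ran against the FPKM order for *Shc1* (370) and *Sos2* (544.5). The same held for *Sos1* (183), *Cbl* (221.5) and *Nf1* (269). *Grb2* (mean 24.8 FPKM over the 10 hearts) and *Ptpn11* (21.3 FPKM) stood above 88.6% and 86.8% of the genes tested, and together made up between 61.9 and 67.5% of the summed FPKM of the 10 regulators in a heart. *Gab1* followed at 9.18 FPKM, then *Shc1* at 4.34, *Sos2* at 4.05 and *Rasa1* at 3.48 FPKM, near the middle of the genes tested. *Sos1* at 1.31, *Cbl* at 1.20 and *Nf1* at 1.09 FPKM were above 21.9%, 19.7% and 16.9% of the genes tested, and *Rasa2* was lowest at 0.248 FPKM. *Gab1* ranked 3 and *Rasa2* 10 in each of the 10 hearts.

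**Figure D1:**
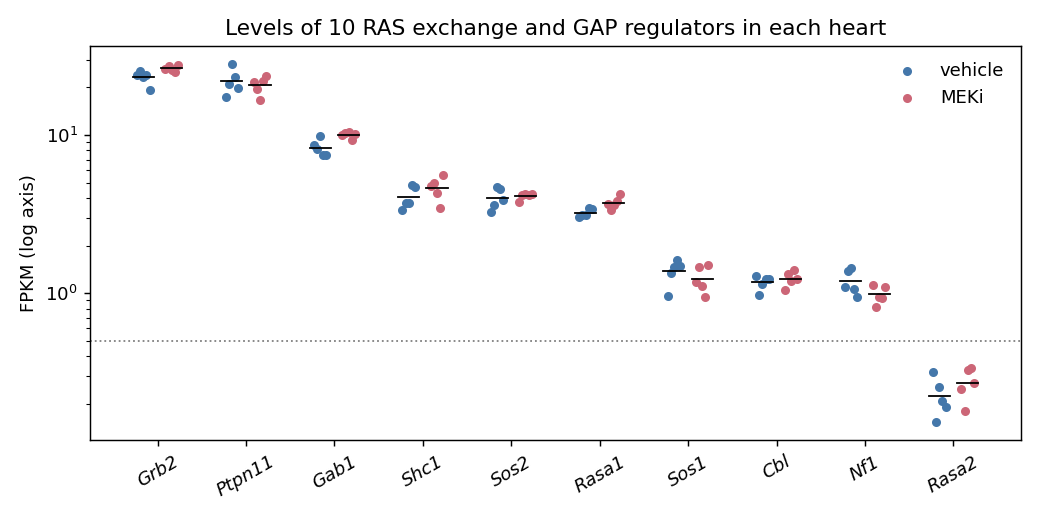
FPKM of the 10 regulators on a log axis, 1 point per heart, with 5 vehicle hearts in blue, 5 MEKi-treated hearts in red, a black line at each group's mean and a dotted line at the 0.5 FPKM filter. Mean levels run from 24.8 FPKM for *Grb2* to 0.248 FPKM for *Rasa2*, and the groups overlap for every gene.

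Neighbours in this order were compared within hearts by a two-sided exact sign-flip permutation test on log2(FPKM + 0.1). Benjamini-Hochberg adjustment was over the 9 neighbour pairs. The order came from the same values, so the test shows only how steady each step in FPKM was between hearts. The steps from *Ptpn11* to *Gab1*, from *Gab1* to *Shc1*, from *Rasa1* to *Sos1* and from *Nf1* to *Rasa2* had the same direction in 10 of 10 hearts (exact p = 0.00195, the smallest possible, adjusted p = 0.00439). *Sos2* was above *Rasa1* in 9 of 10 hearts, by 0.22 ± 0.17 on the log2 scale (SD, n = 10; exact permutation adjusted p = 0.00703). *Grb2* was above *Ptpn11* in 8 of 10 hearts and missed the threshold after adjustment (difference of 0.22 ± 0.27 on the log2 scale, SD, n = 10; exact permutation p = 0.0391, adjusted p = 0.0586). *Shc1* and *Sos2* (adjusted p = 0.292), *Sos1* and *Cbl* (adjusted p = 0.355) and *Cbl* and *Nf1* (adjusted p = 0.269) did not differ beyond their spread by the same exact permutation test. Without 1 heart at a time, 5 or 6 of the 9 steps passed.

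Promoter sequences are shown for 4 regulators, the exchange factor paralogs *Sos1* and *Sos2*, whose levels differed in every heart, and *Gab1* and *Rasa1*, of the regulators whose means were higher with MEKi. Each is the reference sequence of RefSeq on GRCm38.p6, 5′ to 3′ on the gene's strand, from 250 bases before to 50 bases after an annotated start, with the GC box GGGCGG or its reverse complement CCGCCC in capitals.
Sos1 (chr17:80480404-80480703, minus strand): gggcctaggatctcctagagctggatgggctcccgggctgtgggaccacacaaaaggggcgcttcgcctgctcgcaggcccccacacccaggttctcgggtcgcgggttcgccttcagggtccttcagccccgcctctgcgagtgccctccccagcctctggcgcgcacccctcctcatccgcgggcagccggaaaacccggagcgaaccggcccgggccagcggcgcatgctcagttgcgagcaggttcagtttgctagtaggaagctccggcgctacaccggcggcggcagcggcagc
Sos2 (chr12:69681803-69682102, minus strand): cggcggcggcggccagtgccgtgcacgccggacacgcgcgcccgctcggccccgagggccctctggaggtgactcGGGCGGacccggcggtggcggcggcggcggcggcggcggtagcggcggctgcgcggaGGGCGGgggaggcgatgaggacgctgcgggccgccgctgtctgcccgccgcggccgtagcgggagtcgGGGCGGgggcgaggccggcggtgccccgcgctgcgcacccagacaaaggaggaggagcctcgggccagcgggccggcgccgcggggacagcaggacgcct
Gab1 (chr8:80880470-80880769, minus strand): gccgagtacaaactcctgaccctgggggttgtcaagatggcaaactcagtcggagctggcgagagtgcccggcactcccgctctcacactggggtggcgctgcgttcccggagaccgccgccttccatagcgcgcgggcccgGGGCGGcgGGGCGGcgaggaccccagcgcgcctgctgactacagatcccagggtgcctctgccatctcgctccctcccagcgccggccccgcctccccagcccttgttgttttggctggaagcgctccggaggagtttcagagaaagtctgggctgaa
Rasa1 (chr13:85289437-85289736, minus strand): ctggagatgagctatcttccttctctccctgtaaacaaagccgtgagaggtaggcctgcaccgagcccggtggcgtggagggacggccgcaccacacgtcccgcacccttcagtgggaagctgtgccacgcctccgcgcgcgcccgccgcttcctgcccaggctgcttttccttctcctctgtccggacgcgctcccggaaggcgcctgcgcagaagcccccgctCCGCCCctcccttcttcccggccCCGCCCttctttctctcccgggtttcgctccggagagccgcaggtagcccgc

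The *Sos2* window held 3 GC boxes and 54 CpG dinucleotides at 82.7% G and C, whereas the *Sos1* window held 0 GC boxes and 28 CpG dinucleotides at 70.0% G and C. The windows of *Gab1* and *Rasa1* held 2 GC boxes each. RefSeq gave 13 windows for the 10 regulators, with a second start for *Shc1*, *Gab1* and *Grb2*. Of the 13, 9 held a GC box, among them the 2 overlapping windows of *Gab1*, compared with 35.7% of all 32851 windows of this length. The 13 windows were also richer in G and C (median 68.7%, against 52.7% over all windows), so the comparison is not between windows of like composition. The letters CCGGAAGT, bound by ETS factors, were read on either strand in 1 window each of *Shc1* and *Nf1* and in 3.89% of all windows, and the cAMP response element TGACGTCA in the *Ptpn11* window and in 1.79% of all windows. TATAAA was in 1 window (*Grb2*; 13.6% of all windows), the AP-1 site TGACTCA in 1 (*Shc1*; 5.20%) and the E-box CACGTG in 0 (7.15%). Neither window of *Grb2* nor that of *Rasa1* held the 5′ end of the deposited gene, and the *Rasa1* window printed here lies wholly upstream of it. Both windows of *Grb2*, 1 of them with TATAAA, and the second window of *Shc1*, with the AP-1 site, lie inside the deposited genes. These matches describe the letters of each window and do not show that a factor binds there.

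The adaptors and the docking protein were considered first. *Grb2* (chromosome 11, 115644045 to 115708597, minus strand), the SH2 and SH3 adaptor that carries SOS, was at 23.9, 25.5, 23.2, 23.8 and 19.2 FPKM in vehicle hearts 1 to 5 and at 26.3, 27.2, 25.8, 25.2 and 27.7 FPKM in MEKi hearts 1 to 5. Of the MEKi-treated hearts, 4 were above the highest vehicle heart, and vehicle heart 5 lay below all others. The means were 23.1 ± 2.37 and 26.4 ± 1.01 FPKM (SD, n = 5 each), and the log2 fold change was 0.20 with a 95% confidence interval from 0.0041 to 0.39 (limma adjusted p = 0.649, and 0.499 to 0.918 over the alternatives; exact permutation p = 0.0159, unadjusted). Without vehicle heart 5 the log2 fold change was 0.13, and without vehicle hearts 4 and 5 and MEKi heart 2, the hearts with high atrial genes, it was 0.12.

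*Gab1* (chromosome 8, 80764438 to 80880519, minus strand) was at 8.63, 8.12, 9.90, 7.50 and 7.50 FPKM in vehicle hearts 1 to 5 and at 9.98, 10.2, 10.4, 9.35 and 10.1 FPKM in MEKi hearts 1 to 5. Only vehicle heart 3 reached the range of the MEKi-treated hearts, 4 of which were above it. The means were 8.33 ± 0.993 and 10.03 ± 0.416 FPKM (SD, n = 5 each), and the log2 fold change was 0.27 with a 95% confidence interval from 0.067 to 0.48 (limma adjusted p = 0.517, and 0.277 to 0.883 over the alternatives; exact permutation p = 0.0159, unadjusted). *Gab1* had the smallest unadjusted p of the 9 regulators (0.0137), at rank 332 of 12602 genes. The lowest *Gab1* values came from vehicle hearts 4 and 5, the hearts with the highest red cell sums and with high atrial sums, and without them and MEKi heart 2 the log2 fold change was 0.17 (limma unadjusted p = 0.154). MEKi heart 2, with an atrial sum of 708 FPKM, had a *Gab1* level of 10.2 FPKM, within the range of its group. The antisense transcript *Gm31105* shares 266 exonic bases with *Gab1* in GENCODE M21 and had at most 59 fragments in a heart, against 531 to 892 for *Gab1*. No source used here states that counting was strand-specific, so reads from these shared bases cannot be told apart.

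*Shc1* (chromosome 3, 89418443 to 89430027, plus strand), the adaptor that links receptors to GRB2, was at 3.36, 3.71, 3.70, 4.86 and 4.66 FPKM with vehicle and at 4.73, 5.00, 4.32, 3.48 and 5.57 FPKM with MEKi. High and low hearts occurred in both groups, and the means of 4.06 ± 0.661 and 4.62 ± 0.783 FPKM (SD, n = 5 each) differed by less than the spread between hearts (log2 fold change 0.18, 95% confidence interval −0.14 to 0.50, limma adjusted p = 0.812). *Cbl* (chromosome 9, 44142976 to 44234049, minus strand) was at 1.28, 0.972, 1.15, 1.23 and 1.24 FPKM with vehicle and at 1.04, 1.32, 1.20, 1.40 and 1.23 FPKM with MEKi. Its groups overlapped over most of their range, with means of 1.17 ± 0.121 and 1.24 ± 0.134 FPKM (SD, n = 5 each; log2 fold change 0.071, 95% confidence interval −0.22 to 0.36, limma adjusted p = 0.934).

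**Figure D2:**
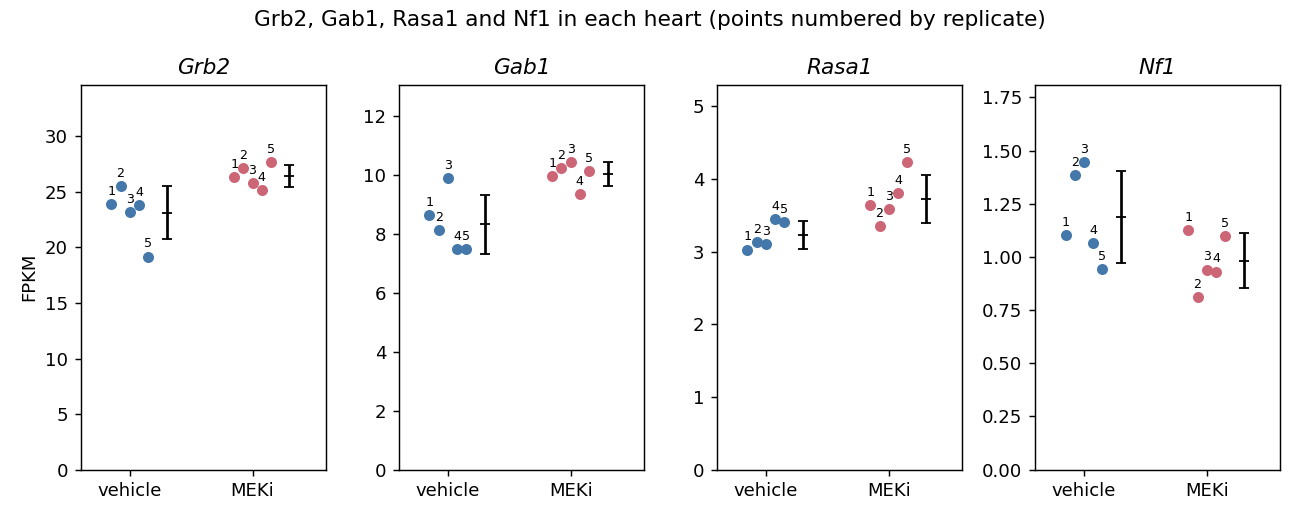
FPKM of *Grb2*, *Gab1*, *Rasa1* and *Nf1* from 0, with vehicle in blue and MEKi in red. Each point is a heart numbered by its replicate within the group (equal numbers were not treated as pairs). Black bars mark the mean ± SD (n = 5). For *Grb2*, *Gab1* and *Rasa1*, 4 of 5 MEKi-treated hearts are above the highest vehicle heart, and for *Nf1*, 3 of 5 are below the lowest vehicle heart. The share of all genes with such a partial separation is not given.

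*Ptpn11* (chromosome 5, 121130533 to 121191397, minus strand), which encodes SHP2, varied more between vehicle hearts than between the groups. It was at 17.3, 21.1, 28.2, 23.4 and 19.9 FPKM with vehicle and at 21.5, 19.5, 16.6, 22.1 and 23.7 FPKM with MEKi. The highest value came from vehicle heart 3 and the lowest from MEKi heart 3. The means were 22.0 ± 4.08 and 20.7 ± 2.73 FPKM (SD, n = 5 each; log2 fold change −0.079, 95% confidence interval −0.38 to 0.22, limma adjusted p = 0.931), and without vehicle heart 3 the sign turned, to 0.015. Relative to its docking partner *Gab1*, *Ptpn11* FPKM was 2.64 ± 0.407 times as high in vehicle and 2.07 ± 0.325 times as high in MEKi-treated hearts (SD, n = 5 each), with overlapping ranges of 2.01 to 3.11 and 1.59 to 2.36. This ratio was taken after the values were seen and was not tested.

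The exchange factors differed from each other more than between the groups. *Sos1* (chromosome 17, 80393752 to 80480453, minus strand) was at 0.966, 1.34, 1.47, 1.62 and 1.49 FPKM with vehicle and at 1.18, 1.46, 1.11, 0.953 and 1.50 FPKM with MEKi. Vehicle heart 1 and MEKi heart 4 were lowest, and the means of 1.38 ± 0.249 and 1.24 ± 0.233 FPKM (SD, n = 5 each) differed by less than the spread (log2 fold change −0.14, 95% confidence interval −0.52 to 0.24, limma adjusted p = 0.891). *Sos2* (chromosome 12, 69583762 to 69681852, minus strand) was at 3.25, 3.60, 4.72, 4.55 and 3.88 FPKM with vehicle and at 3.77, 4.16, 4.21, 4.18 and 4.22 FPKM with MEKi. All MEKi-treated hearts lay within the range of the vehicle hearts, and the means were 4.00 ± 0.621 and 4.11 ± 0.192 FPKM (SD, n = 5 each; log2 fold change 0.050, 95% confidence interval −0.20 to 0.30, limma adjusted p = 0.945). Without vehicle heart 1 the log2 fold change of *Sos2* was −0.019. In each heart *Sos2* was between 2.61 and 4.38 times as high as *Sos1* in FPKM, and it made up 74.5 ± 2.11% of the *Sos1* and *Sos2* sum with vehicle and 76.9 ± 3.31% with MEKi (SD, n = 5 each).

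The mean was higher with MEKi for 2 of the 3 GAPs and lower for *Nf1*, and no difference passed the threshold. *Rasa1* (chromosome 13, 85214780 to 85289130, minus strand) was at 3.03, 3.14, 3.10, 3.45 and 3.41 FPKM with vehicle and at 3.64, 3.35, 3.59, 3.80 and 4.23 FPKM with MEKi. MEKi heart 2 was the only MEKi-treated heart within the vehicle range. The means were 3.23 ± 0.192 and 3.72 ± 0.328 FPKM (SD, n = 5 each), and the log2 fold change was 0.20 with a 95% confidence interval from −0.0040 to 0.40 (limma adjusted p = 0.653, and 0.541 to 0.831 over the alternatives; exact permutation p = 0.0238, unadjusted). Without the 3 hearts with high atrial genes the log2 fold change of *Rasa1* was 0.29. *Ccnh* on the opposite strand shares 12 exonic bases with *Rasa1*.

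*Nf1* (chromosome 11, 79339693 to 79581612, plus strand) was at 1.10, 1.38, 1.45, 1.06 and 0.945 FPKM with vehicle and at 1.13, 0.813, 0.941, 0.931 and 1.10 FPKM with MEKi. Vehicle hearts 2 and 3 were highest, 3 MEKi-treated hearts were below the lowest vehicle heart, and the means were 1.19 ± 0.216 and 0.982 ± 0.130 FPKM (SD, n = 5 each; log2 fold change −0.24, 95% confidence interval −0.59 to 0.10, limma adjusted p = 0.757; exact permutation p = 0.135, unadjusted). Several genes lie inside *Nf1* on the opposite strand, of which *Evi2a* (mean 2.49 FPKM) shares 0 exonic bases with it.

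*Rasa2* (chromosome 9, 96539300 to 96631617, minus strand) was under the filter and had only 35 to 95 fragments per heart. Its level was 0.319, 0.153, 0.257, 0.208 and 0.191 FPKM with vehicle and 0.247, 0.180, 0.326, 0.335 and 0.269 FPKM with MEKi. The groups overlapped, with means of 0.226 ± 0.0641 and 0.271 ± 0.0633 FPKM (SD, n = 5 each; exact permutation p = 0.294, unadjusted). When every gene above 0 was tested, its log2 fold change was 0.19 with the widest interval of the 10 regulators, from −0.31 to 0.70 (limma adjusted p = 0.846).

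*Rasa1* made up 69.6 ± 4.33% of the summed FPKM of the 3 GAPs with vehicle and 74.9 ± 1.71% with MEKi (SD, n = 5 each). The ratio of *Rasa1* to *Nf1* FPKM was 2.80 ± 0.624 with vehicle and 3.82 ± 0.356 with MEKi (SD, n = 5 each), and its ranges overlapped, from 2.15 to 3.61 and from 3.23 to 4.12. The ratio of summed exchange factors to summed GAPs was 1.16 ± 0.152 with vehicle and 1.08 ± 0.125 with MEKi (SD, n = 5 each), also overlapping. These ratios were taken after the values were seen and were not tested, and they compare transcripts, not protein activity.

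**Figure D3:**
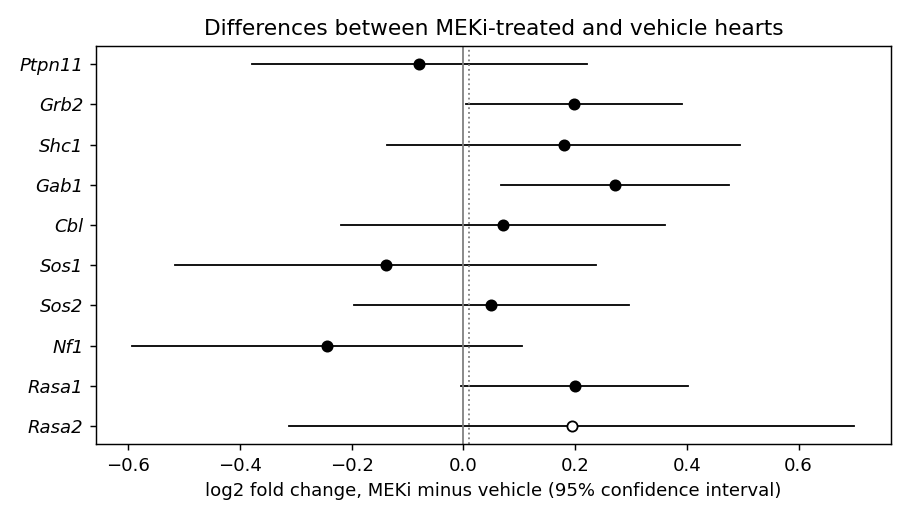
Log2 fold change of each regulator, MEKi minus vehicle, from limma on log2(FPKM + 0.1), with lines for the 95% confidence interval and a dotted line at the median of all genes tested (0.011). Filled points are the 9 regulators past the filter and the open point is *Rasa2*, fitted with every gene above 0. Only the intervals of *Grb2* and *Gab1* leave out 0, before any adjustment over genes.

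The size of change that these hearts could show differed between regulators. The within-group SD on the log2 scale was 0.10 for *Rasa1*, 0.12 for *Grb2* and *Gab1*, 0.15 for *Cbl* and 0.16 for *Sos2*, all below the median of 0.25 over all genes tested. It was between 0.21 and 0.27 for *Nf1*, *Ptpn11*, *Shc1*, *Sos1* and *Rasa2*. For *Sos1*, the confidence interval reached from a level with MEKi of 0.699 to 1.18 times that with vehicle, and for *Ptpn11* from 0.769 to 1.17 times, so a difference within these bounds could not be told from none.

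The regulators differed in how their levels varied from heart to heart. With each profile over the 10 hearts centred and scaled to an SD of 1, the root mean square distance of a regulator to the scaled mean profile of the 9 ran from 0.643 for *Sos2* to 1.33 for *Nf1*. Among 9796 other protein-coding genes at a mean of 1 FPKM or more, those nearest to this mean profile were *Itgav* (distance 0.140), *Csnk1d* (0.294), *Kif16b* (0.312), *Smim10l1* (0.323) and *Serbp1* (0.366). The mean profile was lowest in vehicle heart 1 and highest in MEKi heart 5, where 0 of the 10 regulators were below their mean over the hearts.

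Relatives of these regulators gave a wider range of values, and none passed the threshold. Of 6 other RAS exchange factors, 3 passed the filter, each with a negative log2 fold change (median −0.16). With vehicle and MEKi, *Rasgrp2* was at 2.25 ± 0.616 and 1.70 ± 0.434 FPKM (SD, n = 5 each; limma adjusted p = 0.733). *Rasgrp3* was at 5.70 ± 0.668 and 5.21 ± 0.714 FPKM (SD, n = 5 each; limma adjusted p = 0.824). Of 7 other GAPs, 4 passed the filter, 2 in each direction (median −0.062). *Rasa3*, a GAP for RAS and RAP1, was at 5.48, 5.70, 7.47, 6.16 and 6.37 FPKM with vehicle and at 4.04, 5.09, 4.28, 5.59 and 4.80 FPKM with MEKi, and only MEKi heart 4 reached the vehicle range (log2 fold change −0.38, SE 0.12, limma adjusted p = 0.456). *Rasa3* at a mean of 5.50 FPKM and *Dab2ip*, named after its values were seen, at 6.54 FPKM were above *Rasa1* in mean level over the 10 hearts. *Rasa4* was at 1.42 ± 0.283 and 1.23 ± 0.275 FPKM (SD, n = 5 each; limma adjusted p = 0.829).

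Among 24 other adaptors and docking proteins, 16 passed the filter, 10 with a positive and 6 with a negative log2 fold change (median 0.12). *Sh2b3*, which encodes LNK, an adaptor that restrains cytokine receptor signaling, had the smallest unadjusted p of the 25 relatives tested (0.000529). It was at 8.68, 8.80, 7.89, 8.83 and 9.72 FPKM in vehicle hearts and at 6.80, 5.93, 7.22, 6.60 and 6.02 FPKM in MEKi-treated hearts. The highest MEKi-treated heart was below the lowest vehicle heart (log2 fold change −0.43, SE 0.090, limma adjusted p = 0.231), as was the case in either direction for 1.64% of all genes tested. *Dok3*, a docking protein of immune cells, was at 1.93 ± 0.673 and 1.03 ± 0.462 FPKM (SD, n = 5 each; log2 fold change −0.88, limma adjusted p = 0.463). *Frs2*, which couples FGF receptors to GRB2, is named after its values were seen. Of the 16 genes in this list it was the only one with a positive log2 fold change and an unadjusted p under 0.05 (0.28, limma adjusted p = 0.652). *Ptpn6*, the hematopoietic relative of *Ptpn11*, was at 3.53 ± 1.56 and 2.47 ± 0.669 FPKM, and *Cblb* at 0.794 ± 0.113 and 0.784 ± 0.167 FPKM (SD, n = 5 each; limma adjusted p = 0.736 and 0.980).

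**Figure D4:**
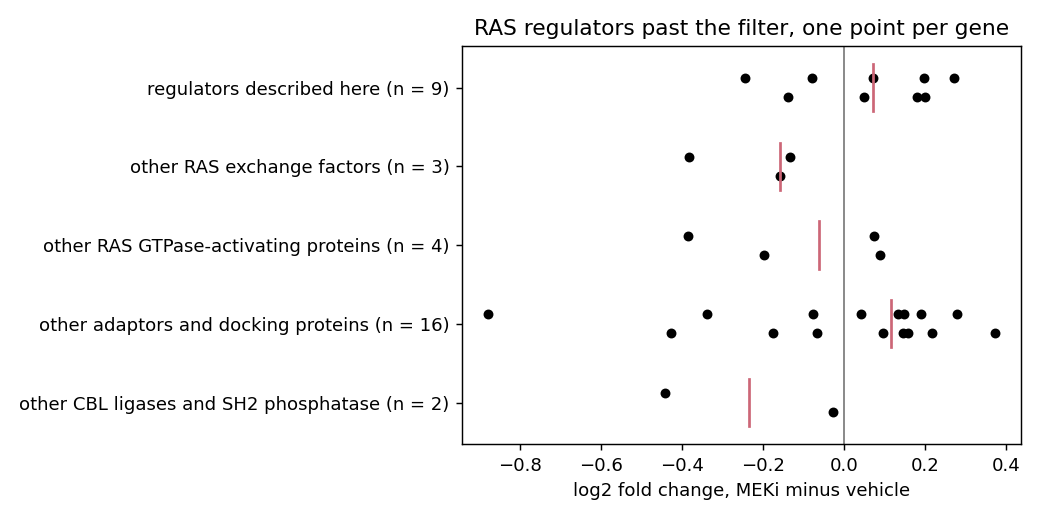
Log2 fold change, MEKi minus vehicle, of each gene past the filter among the regulators described here and 4 lists of their relatives, 1 point per gene, staggered in height for legibility, with a red line at each list's median. The genes lie on both sides of 0, from −0.88 to 0.37, and no gene shown passed the threshold over all genes. All points of the other exchange factors and of the CBL ligases and SH2 phosphatase list are below 0.

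Cell type markers were read beside these values. Summed FPKM of the macrophage genes (*Cd68*, *Csf1r*, *Adgre1*, *C1qa* and *Cd14*) ran from 95.6 to 177 with vehicle and from 96.0 to 117 with MEKi, highest in vehicle heart 5, where *Dok3* (3.07 FPKM) and *Ptpn6* (6.11 FPKM) were also highest. All 5 macrophage genes had a negative log2 fold change (median −0.29), and their part in the values of *Dok3* and *Ptpn6* was not tested. Endothelial genes summed to 90.3 to 152 and 88.7 to 111 FPKM, fibroblast genes to 145 to 231 and 157 to 205 FPKM, and smooth muscle and pericyte genes to 140.0 to 203 and 148 to 166 FPKM with vehicle and MEKi. Adipocyte genes summed to 98.8 to 196 and 92.8 to 154 FPKM, lymphocyte genes to 1.05 to 5.60 and 1.53 to 4.36 FPKM, and the skeletal muscle list, in which *Acta1* and *Ckm* are also expressed by heart muscle and *Myh4* was listed at 0 in all hearts, to 423 to 585 and 440.4 to 633 FPKM. The ranges of the groups overlapped for every marker list, and no marker gene passed the threshold.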

How the data were processed

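Poly(A)-selected RNA of 10 hearts was sequenced. The authors deposited 1 table of FPKM, in which fragments per gene are divided by the gene's length and a scaling size per heart. This size, recovered from the values, was not the heart's fragment total. It was 14218190 against 15371692 fragments in vehicle heart 3, and 17139803 against 16256252 in MEKi heart 1. The submitters' processing notes name fastp, STAR 2.5, HTSeq 0.6.1 and the mm10 build without their roles, and 98.3% of 54495 genes matched the coordinates of GENCODE M21 (GRCm38). Hearts were grouped by their labels. FPKM multiplied by length were whole multiples of 1 step per heart (within 0.05 for 100% of values above 0), which gave the fragments. Values were tested as log2(FPKM + 0.1) with limma 3.58.1 (R 4.3.3; eBayes with a trend), two-sided, over genes whose mean reached 0.5 FPKM, and a gene was called at a Benjamini-Hochberg adjusted p under 0.05. This scale understates the change of low genes. For single genes, the group means were set against those of all 252 splits into groups of 5 (exact permutation test, two-sided, smallest p 0.00794). No share of all genes is given for this test. The fit was tested on simulated data. Pseudocounts of 1 and 0.01, filters, scalings, array weights, voom, the replicate block and omitted hearts were the alternatives.

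The 10 regulators, the lists of relatives and markers and the tests were chosen with earlier results of these data known. All 10 regulators were named, with the 2 genes of smallest p in each list of relatives and the 5 genes nearest to the mean profile of the regulators. Summaries were made with pandas 2.3.3, numpy 2.4.6 and statsmodels 0.14.6 under Python 3.11.15. Labels give separate biological replicates. They do not say that equal numbers are pairs, and the main fit treated the hearts as unpaired. Deviations of equal numbers correlated between −0.15 and −0.021 over genes. Unequal numbers were not compared, so these values do not decide whether the numbers match hearts.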

Additional observations from a re-analysis of the deposited data

Results flagged for a closer look

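Among 20 groups of 5 hearts examined for the 10 regulators, 1 held a heart far from the rest, where chance gives about 1. It was MEKi heart 1 for *Sos2*, at 3.77 FPKM, while the other MEKi-treated hearts lay between 4.16 and 4.22 FPKM.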

How the results depend on the processing

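Over 183 alternative values of the 9 regulators, from 21 settings, 0 passed the threshold and the lowest adjusted p was 0.277 (*Gab1* without vehicle replicate 3). The sign turned in 2 of the 183, each time with 1 heart left out. Leaving out each heart in turn gave a log2 fold change of *Ptpn11* from −0.16 to 0.015 and of *Sos2* from −0.019 to 0.11, the lowest of each without vehicle heart 1 and the highest without vehicle heart 3. That of *Sos1* ran from −0.25 (without vehicle heart 1) to −0.057 (without MEKi heart 4), of *Cbl* from 0.011 (without vehicle heart 2) to 0.13 (without MEKi heart 1) and of *Shc1* from 0.11 (without MEKi heart 5) to 0.28 (without MEKi heart 4). The number of regulators past the threshold was 0 under every alternative. The median log2 fold change of the regulators was 0.20 with a mean of at least 5 FPKM, where 3 of them remain, and from 0.016 to 0.13 with a heart left out. The count of all genes past the threshold, 10, was 2 with a mean of at least 5 FPKM, 18 with array weights, 4 with the replicate block, 0 without X, Y and mitochondrial genes, 5 without the 3 hearts with high atrial genes, and 5 (without vehicle replicate 2) to 13 (without vehicle replicate 1) with a heart left out. The cause was not tested. With the replicate block, the log2 fold changes of the regulators were the same and no call changed. A TPM scale moved the median of all genes from 0.011 to 0.088 and that of the regulators from 0.071 to 0.15, and with every gene above 0 tested, *Rasa2* included, the median of the regulators was 0.13. The steps between neighbours past the threshold, 5 of 9, were 5 or 6 under the 13 alternatives run for them (pseudocounts of 1 and 0.01, the TPM scale and each heart left out). Depth limits *Rasa2* most, with 35 to 95 fragments per heart. Intervals assume that the spread of 5 hearts per group is well estimated.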
